A study of Homo sapiens with 8 samples.

Results

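LNCaP-FGC prostate carcinoma cells treated for 24 h with the inhibitor I-CBP112 were compared with and without A-485 beside it. The comparison uses the 2 libraries with I-CBP112 and A-485 together and the 2 libraries with I-CBP112 alone. These are 4 of the 8 RNA-seq libraries of the series. The libraries were taken by their labels, and the comparison was chosen with earlier results of these data known. I-CBP112 binds the bromodomains of the histone acetyltransferases p300 and CBP and was present in all 4 libraries; A-485 blocks the catalytic site of the same proteins. The other 4 libraries held A-485 alone or the solvent DMSO, and serve here for the estimate of the spread and for the size of the A-485 change without I-CBP112. The sources used here do not give the doses. LNCaP-FGC is a single established line, and the labels do not state separate cultures for the libraries of a group. The p-values therefore speak for the spread among these libraries, which may be a technical one.

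p300 and CBP are large coactivators that transcription factors bring to enhancers. Their catalytic domain acetylates histones and other proteins, and their bromodomain binds acetylated lysine, so that one compound removes a reader function and the other an enzyme activity of the same protein. In luminal prostate cells they are coactivators at the enhancers of androgen-regulated genes such as KLK3, which encodes prostate-specific antigen, and MYC is another gene with strong acetylated enhancers. ATF4, which switches on amino acid synthesis and transport when protein synthesis is strained, and E-box factors such as MYC, which drive ribosome assembly, often act closer to start sites.

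Promoters of genes that fell with A-485 beside I-CBP112 are shown first. The results turn on 3 groups of genes that such factors are known to control. The sequences are from RefSeq on GRCh38.p14, each 250 bases before the start and 50 after, written 5′ to 3′ on the strand of the gene. Capitals mark AGAACA, a steroid response half-site, in KLK3, TGATGNAA, the composite element of ATF4, in CHAC1 and ASNS, and CACGTG, the E-box, in NOP2 and WDR43. In CHAC1 the element lies on the opposite strand. Each promoter was marked for a single motif, and AGAACA also occurs, unmarked, in the ASNS and WDR43 promoters.
KLK3 promoter, chr19:50854665-50854964, plus strand: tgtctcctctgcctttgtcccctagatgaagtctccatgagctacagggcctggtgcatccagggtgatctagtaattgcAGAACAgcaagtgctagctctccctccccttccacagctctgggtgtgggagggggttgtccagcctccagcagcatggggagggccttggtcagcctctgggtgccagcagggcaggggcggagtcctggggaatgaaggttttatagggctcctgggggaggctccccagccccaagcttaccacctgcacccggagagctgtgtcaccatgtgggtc
CHAC1 promoter, chr15:40953221-40953520, plus strand: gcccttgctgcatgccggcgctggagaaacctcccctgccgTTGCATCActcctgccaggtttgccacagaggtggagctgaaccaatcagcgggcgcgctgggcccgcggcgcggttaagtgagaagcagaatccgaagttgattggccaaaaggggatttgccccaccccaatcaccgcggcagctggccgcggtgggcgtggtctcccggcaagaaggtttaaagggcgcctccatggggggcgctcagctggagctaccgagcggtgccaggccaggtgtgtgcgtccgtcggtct
ASNS promoter, chr7:97872359-97872658, minus strand: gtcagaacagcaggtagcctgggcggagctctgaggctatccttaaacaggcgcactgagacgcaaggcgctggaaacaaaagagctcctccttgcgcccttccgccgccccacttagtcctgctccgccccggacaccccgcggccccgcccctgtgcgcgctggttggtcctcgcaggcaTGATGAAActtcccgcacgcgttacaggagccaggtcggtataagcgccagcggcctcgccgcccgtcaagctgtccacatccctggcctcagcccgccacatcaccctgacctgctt
NOP2 promoter, chr12:6568242-6568541, minus strand: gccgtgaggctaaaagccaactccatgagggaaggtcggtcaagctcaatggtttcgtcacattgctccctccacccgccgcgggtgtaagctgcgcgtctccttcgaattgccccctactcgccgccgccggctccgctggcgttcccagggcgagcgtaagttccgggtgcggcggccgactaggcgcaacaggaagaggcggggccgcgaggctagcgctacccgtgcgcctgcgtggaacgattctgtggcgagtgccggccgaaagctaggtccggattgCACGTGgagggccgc
WDR43 promoter, chr2:28894417-28894716, plus strand: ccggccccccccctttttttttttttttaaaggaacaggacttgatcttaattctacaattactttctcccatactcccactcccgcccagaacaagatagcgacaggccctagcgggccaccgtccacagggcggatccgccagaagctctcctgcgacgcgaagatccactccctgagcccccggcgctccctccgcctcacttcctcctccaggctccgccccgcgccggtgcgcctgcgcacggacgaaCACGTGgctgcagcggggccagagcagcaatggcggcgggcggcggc

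Counting the start as 0, the capitals begin at -170 in KLK3, -209 in CHAC1, -68 in ASNS, 35 in NOP2 and 3 in WDR43. Both strands were searched, and the E-box reads the same on both. AGAACA was in 21.4% (3 of 14) of the androgen activity score, in 5.88% (1 of 17) of the other androgen-induced genes, in 9.25% of the 389 genes with an entry that fell and in 7.2% of the 125 that rose, against 8.41% of the 9358 tested genes with an entry and 14.8% of all 27305 promoters of the table. TGATGNAA was in 19.4% (6 of 31) of the ATF4 targets, in 3.08% of the genes that fell and in 0 of those that rose, against 1.52% of tested genes and 3.67% of all promoters. CACGTG was in 34.6% (9 of 26) of the ribosome biogenesis genes, in 17.5% (68 of 389) of the genes that fell and in 7.2% (9 of 125) of those that rose, against 10.4% of tested genes and 7.43% of all promoters. The motifs were not split by list: AGAACA was in 15.4% (4 of 26) of the ribosome biogenesis genes and in 9.68% (3 of 31) of the ATF4 targets. CACGTG was in 23.5% (4 of 17) of the other androgen-induced genes. The genes shown all carry the motif and were called lower. The E-box was also in FBL, PES1, UTP20, BYSL, MYBBP1A and UTP4, ribosome biogenesis genes that were not called. The ATF4 element was also in ATF3 and FGF21, ATF4 targets that were not called. RRP9, SLC3A2 and SLC7A1 carried theirs and were called lower. These shares are a description of the letters in a window of 300 bases. Whether the motifs took part in the falls was not tested.

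The libraries gave FPKM (fragments scaled per kilobase of transcript length and per 1e+06 of the library's fragments), which were summed to genes and scaled so that libraries could be compared. The numbers of fragments assigned to transcripts, estimated from the smallest steps between values, were about 16.9 and 13.5 with both compounds, against 15.9 and 4.44 with I-CBP112, in units of 1e+06 fragments. By this number replicate 1 was a pair of like depth, and in replicate 2 the library with both compounds was deeper. The fragments by which FPKM were scaled were about 17.5 and 27.3 with both compounds, against 17.1 and 20.6 with I-CBP112, in those units. Of these, 96.8% and 49.4% were assigned to transcripts with both compounds, against 92.9% and 21.5% with I-CBP112. The cause of the lower share in replicate 2 was not tested. Genes above 1 FPKM as deposited numbered 11152 and 10069 with both compounds, against 11045 and 8061 with I-CBP112. Several of 10 luminal epithelial markers were present in all 4 libraries: KRT8, KRT18, EPCAM, CDH1, HOXB13 and FOXA1 were each at 50.1 scaled FPKM or above. KRT19, another of them, was low, at 1.18 and 2.20 scaled FPKM with both compounds, against 2.16 and 10.1 with I-CBP112. KLK3, also in that list, fell, as given below. Summed over the 10, scaled FPKM was 2414 and 1762 with both compounds, against 3082 and 2951 with I-CBP112. The basal gene TP63 and the immune genes PTPRC and CD3E were listed at 0 in all 8 libraries. KRT5, a basal keratin, stood at 14.1 scaled FPKM in replicate 2 of I-CBP112 and at 1.67 or less in the other 3 libraries of the comparison. The summed scaled FPKM of the 8 basal markers was 4.44 and 7.91 with both compounds, against 4.48 and 24.8 with I-CBP112. That of 10 stromal markers was 42.5 and 47.2 with both compounds, against 50.9 and 48.8 with I-CBP112, and that of 10 blood and immune markers 6.55 and 4.54 with both compounds, against 2.37 and 2.75 with I-CBP112. CD68, a lysosomal protein gene of macrophages, was the only immune marker tested and made up most of that sum, with 5.91 and 3.98 with both compounds, against 2.03 and 2.64 with I-CBP112 (0.82 ± 0.32, adjusted p = 0.184, limma; 0.0340 by voom). Of 5 stromal markers tested, FN1, fibronectin, was called lower (-0.77 ± 0.14; not called without the block), and COL1A1, a collagen gene, differed by 0.72 ± 0.16 (adjusted p = 0.0527, limma; 0.00782 by voom). The part of such cells in the results was not tested.

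Many more genes fell than rose with A-485 beside I-CBP112. Of 11874 genes tested, 684 passed an adjusted p of 0.05 (5.76%; limma, Benjamini-Hochberg over all genes), 514 of them lower with both compounds (4.33%) and 170 higher (1.43%). At least 2-fold changes were called for 269 genes that fell (2.27%) and 48 that rose (0.404%), and at least 4-fold changes for 37 that fell and 1 that rose. The median called fall was -1.02 on the log2 scale and the median called rise 0.87, while the median of all genes was 0.01. The fit took the replicate pairs as a block, and without it 236 genes fell (1.99%) and 33 rose (0.278%), all of them among the 684. The split depends on the scaling: with library totals only, 403 fell and 328 rose, and with the values as deposited, which put the median gene 0.53 higher with both compounds, 61 fell and 384 rose.

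Both replicate pairs moved the same way for all 684 called genes, and in 676 the 2 groups did not overlap. The calls were made on these same pairs, which favours such genes, so this is not separate evidence. Over all genes, 72.7% had the same sign in both pairs, and non-overlapping groups were found for 2978 genes that were lower (25.1%) and 3002 that were higher (25.3%). Across genes, which are not independent replicates, the change in replicate 1 and the change in replicate 2 had a Pearson correlation of 0.59 over 11874 genes, and of 0.72 over the 7257 genes with a mean of at least 10 scaled FPKM. The share of genes called lower was 2.18% at a mean below 5 and 6.89% at 100 or more. Genes with GC-poor transcripts were called higher in 0.371% of cases in the lowest quartile of GC content and GC-rich ones in 2.46% in the highest. With a correction for length and GC content 729 genes fell and 250 rose.

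**Figure D1:**
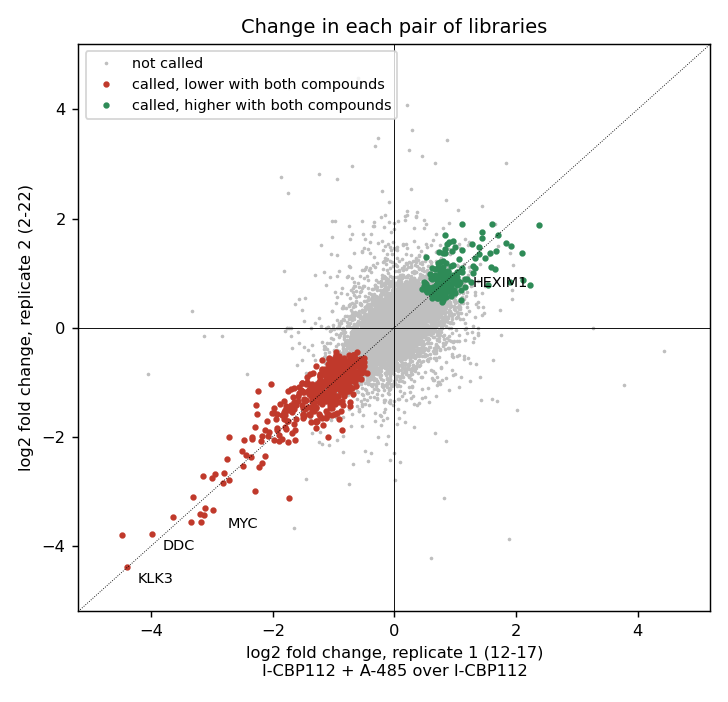
Log2 fold change of I-CBP112 with A-485 over I-CBP112 in replicate 1 (horizontal) and replicate 2 (vertical), 1 point per gene tested, with 514 called falls in red and 170 called rises in green. All called genes lie in the quadrants where both pairs have the same sign, and KLK3 and DDC stand at the far lower left, near the dotted line of equal change.

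The androgen-regulated kallikrein genes KLK3 and KLK2 had the largest falls among the named genes. KLK3, the gene of prostate-specific antigen, stood at 51.4 and 50.6 scaled FPKM with both compounds, against 1102 and 1076 with I-CBP112. The groups were far apart and each was tight, and the log2 change was -4.39 ± 0.13 (SE, 2 libraries a group, adjusted p = 8.69e-05, limma). KLK2, its neighbouring kallikrein protease, had 8.38 and 13.7 scaled FPKM with both compounds and 208 and 204 with I-CBP112. It fell by 4.14 ± 0.26 (adjusted p = 0.000651, limma), again without overlap. TMPRSS2, a membrane serine protease whose promoter is often fused to ETS genes in prostate cancer, had 13.4 and 11.8 scaled FPKM with both compounds and 111 and 82.0 with I-CBP112, a log2 change of -2.83 ± 0.13 (adjusted p = 0.000187, limma). FKBP5, a co-chaperone of steroid receptors, moved less, with 7.99 and 8.63 scaled FPKM with both compounds, against 14.8 and 16.8 with I-CBP112. Its change was -0.85 ± 0.16 (adjusted p = 0.0318, limma), and it did not pass without the block (0.0519).

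The androgen activity score, a list of androgen-induced genes, had 12 of 21 tested members lower and 0 higher, with a median log2 change of -1.02, and 9 were lower without the block. In that list C1orf116 (-3.55 ± 0.19) came after the kallikreins. Of 25 other androgen-induced genes, 14 fell and 0 rose (median -1.18). ADAMTS1, a secreted metalloprotease, fell by 3.45 ± 0.24 and SLC45A3, a sugar transporter of the prostate, by 3.21 ± 0.13. In these lists voom on approximate fragments called 0 members higher as well. In bulk RNA, fewer cells that express a gene and less of its RNA per cell cannot be told apart.

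Genes that androgen is known to repress fell as well. Of 8 tested, 7 were lower and 0 higher (median -1.17, 4 lower without the block): UGT2B15, UGT2B17 and UGT2B11, of the glucuronosyltransferases that inactivate steroids, the kinase inhibitor gene CAMK2N1, the cholinesterase gene BCHE, LRRN1 and HES6. HES6, a bHLH cofactor, had 57.4 and 41.4 scaled FPKM with both compounds, against 326 and 245 with I-CBP112, and fell by 2.51 ± 0.12 (adjusted p = 0.000235, limma). The UGT2B genes are close paralogs whose reads the authors' counting could have shared between them, so their separate values are uncertain. Of 14 glucocorticoid-responsive genes 5 fell (median -0.50, 2 without the block), among them ZBTB16 (-1.93 ± 0.24) and TSC22D3 (-1.34 ± 0.19); FKBP5 and ZBTB16 are also in androgen lists.

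**Figure D2:**
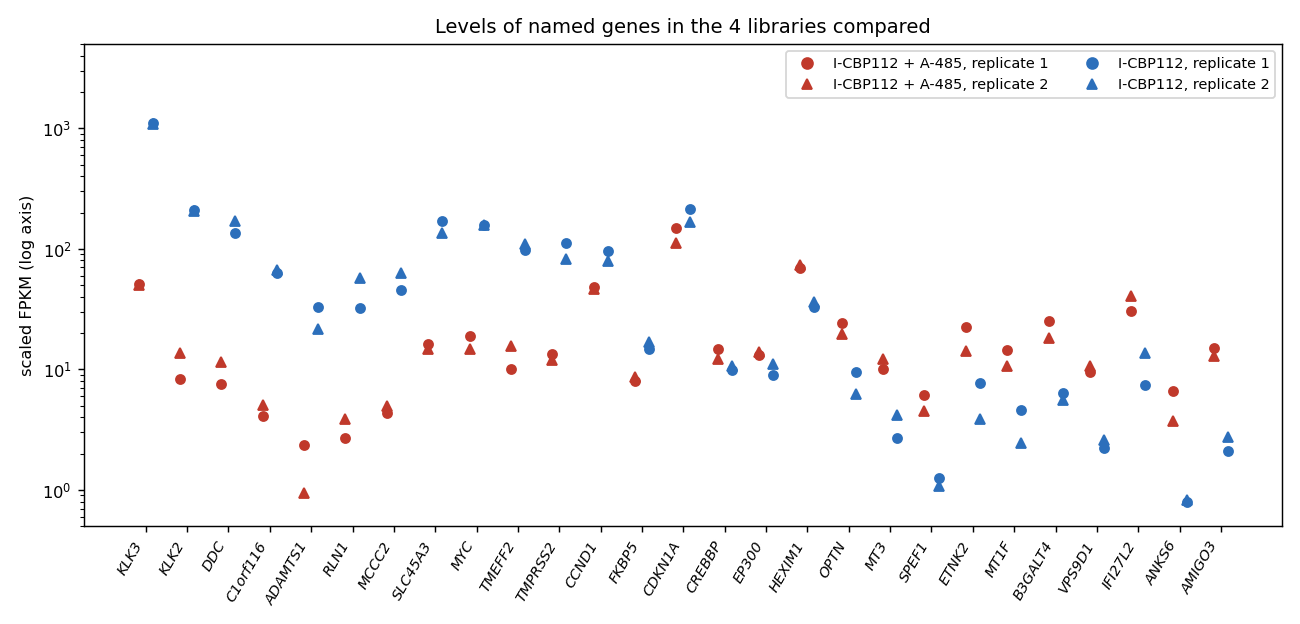
Scaled FPKM (log axis) of named genes in the 4 libraries compared, I-CBP112 with A-485 in red left of I-CBP112 in blue, circles for replicate 1 and triangles for replicate 2, ordered by log2 fold change. KLK3 to TMPRSS2 lie lower in both red libraries than in both blue ones, and HEXIM1 to AMIGO3 lie higher.

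Several members of a list of prostate transcription factors were lower, and others were not called. Of 15 tested factors, 7 were called lower and 0 higher (median -0.69, 6 without the block), among them GATA2 (-0.69 ± 0.12), SPDEF (-1.39 ± 0.12), XBP1 (-1.17 ± 0.17), KLF5 (-1.34 ± 0.22) and ETV1 (-0.93 ± 0.16). KLF5 was low, at 0.786 and 1.23 scaled FPKM with both compounds and 3.46 and 4.72 with I-CBP112. FOXA1, a pioneer factor of luminal cells, had 221 and 223 scaled FPKM with both compounds and 199 and 195 with I-CBP112, a log2 difference of 0.17 ± 0.13 that was not called (adjusted p = 0.463, limma). HOXB13, the prostate homeobox factor, differed by 0.09 ± 0.14 and was not called either.

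Secreted and surface proteins of luminal cells had the lowest median of the lists, -1.68. Of 16 tested, 10 were lower and 0 higher, the same counts as without the block. KLK3, KLK2, KLK4, SLC45A3 and TRPM8, called in this list, are also in the androgen lists above, so the lists are not separate. RLN1, a relaxin hormone gene, had 2.71 and 3.91 scaled FPKM with both compounds and 32.6 and 56.8 with I-CBP112 (log2 change -3.37 ± 0.15). The metalloreductase genes STEAP1 (-1.46 ± 0.12) and STEAP2 (-1.09 ± 0.16), the zinc transporter SLC30A4 (-1.90 ± 0.12) and the acid phosphatase gene ACPP (-2.36 ± 0.24) were among the others. Outside the lists, the deepest falls included DDC, which makes dopamine and serotonin, at 7.50 and 11.4 scaled FPKM with both compounds and 134 and 170 with I-CBP112. DDC fell by 3.89 ± 0.13 (adjusted p = 8.69e-05, limma). MCCC2, a mitochondrial carboxylase of leucine breakdown, fell by 3.29 ± 0.16 and TMEFF2, a membrane protein of prostate, by 2.94 ± 0.14. TRIM49D1 was listed at 0 in 1 library and stood at 0.0626 scaled FPKM in the other with both compounds, against 8.20 and 10.4 with I-CBP112, but belongs to a family of near-identical copies and its value is uncertain.

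MYC, the growth-promoting transcription factor, had 19.0 and 14.7 scaled FPKM with both compounds and 158 and 158 with I-CBP112. It fell by 3.16 ± 0.13 (adjusted p = 0.000187, limma), and the groups did not overlap. It was the only one of 11 tested genes of its dimerization network that was called (9.09% lower, against 4.33% of all genes). Its partner MAX had 49.2 and 49.6 scaled FPKM with both compounds and 58.3 and 41.7 with I-CBP112, and the antagonist gene MXD4, which had 130 and 91.6 scaled FPKM with both compounds and 103 and 71.2 with I-CBP112, was not called at 0.35 ± 0.11 (adjusted p = 0.131, limma).

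Ribosome biogenesis genes lay lower, 12 of them past the test. Of 30 tested, 12 were called lower and 0 higher, and 5 were called without the block. All 30 had a log2 change below 0, against 5758 of all 11874 genes, and the median was -0.64. GNL3, which encodes nucleostemin, had 37.1 and 38.6 scaled FPKM with both compounds and 97.0 and 108 with I-CBP112 (log2 change -1.41 ± 0.16, adjusted p = 0.00626, limma). WDR43, of the small-subunit processome, had 13.5 and 7.78 scaled FPKM with both compounds and 29.9 and 25.1 with I-CBP112. It fell by 1.33 ± 0.23 (adjusted p = 0.0262, limma). With A-485 alone it had 22.0 and 16.0, against 15.2 and 18.5 with DMSO (0.15 ± 0.23, not called). NOP2, an rRNA methyltransferase, fell by 0.74 ± 0.14, and PPAN by 1.12 ± 0.12. NPM1, the nucleolar chaperone, fell by 1.06 ± 0.17, though it has many processed pseudogenes that can share its reads. None of the 50 ribosomal protein genes was called by limma or by voom on approximate fragments, though 44 had a log2 change below 0. Their median was -0.17, and 2 had an unadjusted p under 0.05 (limma).

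ATF4 targets gave the largest count. Of 38 tested, 29 were called lower and 0 higher, all 38 had a log2 change below 0, and the median was -1.20; 18 were called without the block. ATF4, which itself is in the list, had 296 and 386 scaled FPKM with both compounds and 680 and 805 with I-CBP112 (log2 change -1.13 ± 0.19, adjusted p = 0.0225, limma). CHAC1, which degrades glutathione and carries the element shown above, had 12.3 and 14.7 scaled FPKM with both compounds and 74.8 and 74.1 with I-CBP112. It fell by 2.39 ± 0.20 (adjusted p = 0.00232, limma), and ASNS, asparagine synthetase, by 1.46 ± 0.22, with 136 and 188 scaled FPKM with both compounds and 409 and 478 with I-CBP112.

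The called ATF4 targets covered several steps of amino acid supply. Serine synthesis was lower at PSAT1 (-1.99 ± 0.18), PHGDH (-0.95 ± 0.17) and PSPH (-0.78 ± 0.14). Among transporters, SLC1A5, which carries glutamine, fell by 2.24 ± 0.26, SLC7A11, which takes up cystine, by 2.17 ± 0.23, and SLC3A2, its partner, by 1.19 ± 0.15. The pseudokinase gene TRIB3 (-1.68 ± 0.18) and the pro-apoptotic factor gene DDIT3 (-1.21 ± 0.17) were also lower. Aminoacyl-tRNA synthetases, which charge tRNAs, had 8 of 20 tested lower and 0 higher (median -0.67, 3 without the block), with GARS at -1.49 ± 0.16 and YARS at -1.21 ± 0.17.

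**Figure D3:**
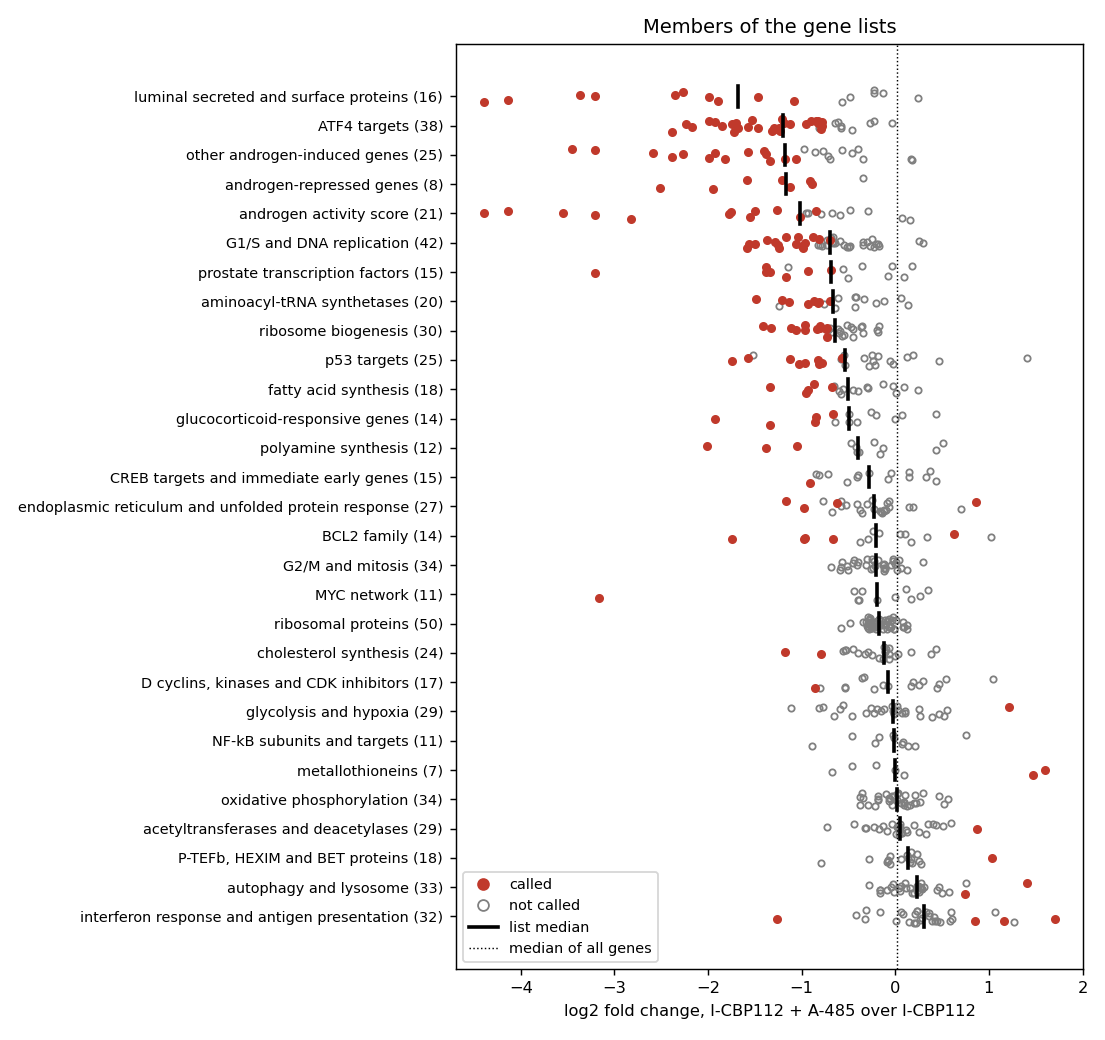
Log2 fold change of I-CBP112 with A-485 over I-CBP112 for each tested member of 29 gene lists, with the number tested in brackets, filled circles for called genes and bars for list medians; the vertical scatter within a list has no meaning. Luminal secreted proteins (median -1.68) and ATF4 targets (-1.20) lie at the top, and interferon genes (0.30) at the bottom, with the median of all genes (0.01) as a dotted line.

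Genes of the start of DNA replication were lower, and mitotic genes were not called. Of 42 G1/S and replication genes, 16 fell and 0 rose (median -0.69, 11 without the block). MCM5, a subunit of the replicative helicase, had 16.7 and 15.1 scaled FPKM with both compounds and 48.8 and 48.6 with I-CBP112 (log2 change -1.56 ± 0.15, adjusted p = 0.00391, limma). MCM2 (-1.49 ± 0.15), the licensing factor gene CDC6 (-1.58 ± 0.18) and the thymidine kinase gene TK1 (-1.37 ± 0.16) had similar falls. Of 34 G2/M genes 0 were called by limma, though 28 had a log2 change below 0 (median -0.20). At an unadjusted p under 0.05 (limma) 6 were lower, and voom called 3 lower. CCND1, a D cyclin that starts the cycle, had 48.2 and 46.5 scaled FPKM with both compounds and 95.5 and 78.6 with I-CBP112. It fell by 0.86 ± 0.13 (adjusted p = 0.0153, limma), but did not pass without the block (0.0511). It was the only called one of 17 cyclins, kinases and inhibitors of that step (5.88% lower, against 4.33% of all genes). CDKN1A, the p21 inhibitor gene, stood at 149 and 113 scaled FPKM with both compounds and 214 and 166 with I-CBP112 and was not called (-0.54 ± 0.13, adjusted p = 0.0688, limma).

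In other lists fewer members were called, to be read against the 4.33% of all genes called lower and the 1.43% called higher. Of 25 p53 targets 9 were lower (median -0.54, 4 without the block), among them GDF15 and SESN2, which are ATF4 targets as well, and PMAIP1 (-1.74 ± 0.17), which encodes the pro-apoptotic NOXA. In the BCL2 family, PMAIP1, BBC3, BOK and BID fell and BAD, a pro-apoptotic member, rose (0.63 ± 0.13); without the block PMAIP1 and BBC3 alone were called. Fatty acid synthesis had 5 of 18 lower (median -0.50, 1 without the block), including SCD (-0.95 ± 0.16) and FASN (-0.87 ± 0.17), and cholesterol synthesis had 2 of 24, INSIG1 among them (8.33%; median -0.13, 0 without the block). Of 12 genes of polyamine metabolism, AMD1 (-1.38 ± 0.14), SRM (-1.05 ± 0.19) and ARG2 (-2.01 ± 0.14) were lower. In the endoplasmic reticulum list HERPUD1, XBP1 and HSPA5 fell and ERO1B, an oxidase of disulfide formation, rose (0.87 ± 0.17), with a median of -0.23 over 27 genes; without the block HERPUD1 and XBP1 alone were called. HSPA5, the chaperone BiP, changed by -0.63 ± 0.13, and by 0.0908 on the values as deposited. Log2 changes below 0 were found for 23 of the 27 endoplasmic reticulum genes and 20 of the 24 cholesterol synthesis genes. By limma, 0 of 11 NF-kB genes were called (median -0.01; 2 lower and 1 higher at an unadjusted p under 0.05, 0 by voom). Of 34 oxidative phosphorylation genes 0 were called (limma; median 0.02; 3 lower and 2 higher at an unadjusted p under 0.05, 1 higher by voom). Of 15 CREB and immediate early genes, SIK1 alone was called (6.67%), with a log2 change of -0.91 ± 0.18. Of 29 glycolysis and hypoxia genes 0 were called lower and 1, ENO2, higher (1.21 ± 0.21), with a median of -0.02; 6 were lower and 4 higher at an unadjusted p under 0.05, and voom called 5 lower and 1 higher.

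Fewer genes rose, and most by less than 4-fold. HEXIM1, which holds the elongation kinase P-TEFb inactive, had 69.2 and 73.8 scaled FPKM with both compounds and 32.9 and 35.9 with I-CBP112. The groups did not overlap, and it rose by 1.03 ± 0.12 (adjusted p = 0.00734, limma). It was the only one of 18 genes for P-TEFb, HEXIM and BET proteins that was called, against 1.43% of all genes called higher. AMIGO3, a neuronal adhesion protein gene, had 15.1 and 12.8 scaled FPKM with both compounds and 2.10 and 2.77 with I-CBP112, the largest called rise under the naming rule (2.12 ± 0.33, adjusted p = 0.0192, limma). IFI27L2, an interferon-inducible mitochondrial protein gene, had 30.7 and 40.4 scaled FPKM with both compounds and 7.43 and 13.7 with I-CBP112 (1.70 ± 0.19, adjusted p = 0.00658, limma). Others were B3GALT4 (1.69 ± 0.15), a galactosyltransferase of gangliosides, VPS9D1 (1.70 ± 0.26), ANKS6 (1.74 ± 0.34), ETNK2 (1.54 ± 0.20), an ethanolamine kinase, and SPEF1 (1.53 ± 0.19). ANKS6 had 6.68 and 3.73 scaled FPKM with both compounds and 0.788 and 0.826 with I-CBP112, but 3.80 and 4.71 with DMSO. It was not called by voom (adjusted p = 0.0788).

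The interferon and antigen presentation list had 3 called members higher, IFI27L2, IFI6 (0.85 ± 0.16) and IRF9 (1.16 ± 0.21), and TAP2, a peptide transporter, lower (-1.27 ± 0.17). Its median was 0.30, with 27 of 32 above 0, and 2 rose without the block. ISG15 had 221 and 233 scaled FPKM with both compounds and 157 and 176 with I-CBP112, and was not called (0.45 ± 0.17). OPTN, an autophagy receptor, had 24.4 and 19.8 scaled FPKM with both compounds and 9.47 and 6.19 with I-CBP112 (1.41 ± 0.23, adjusted p = 0.0218, limma). The protease gene CTSB rose by 0.75 ± 0.11. They were the only called members of 33 autophagy and lysosome genes (median 0.23), against 1.43% of all genes called higher. CTSB was not called without the block (adjusted p = 0.266, limma). Of 7 metallothioneins and their regulators, MT1F (1.60 ± 0.29) and MT3 (1.47 ± 0.21) rose and MT1G, MT1X and MT2A were not called. MT1F had 14.4 and 10.6 scaled FPKM with both compounds and 4.63 and 2.44 with I-CBP112, but 13.4 and 19.2 with DMSO. The metallothionein genes are near-identical and their separate values are uncertain. ENO2, a neuronal and glycolytic enolase, had 73.8 and 71.3 scaled FPKM with both compounds and 29.5 and 32.2 with I-CBP112 (1.21 ± 0.21). It made up nearly all of the neuroendocrine marker sum, 79.0 and 76.3 with both compounds and 32.4 and 33.8 with I-CBP112, while the defining gene INSM1 was at 0 in all 8 libraries. SYP, which encodes the vesicle protein synaptophysin and was the only other of the 10 markers tested, had 4.85 and 4.61 scaled FPKM with both compounds and 2.84 and 1.43 with I-CBP112. Its log2 difference was 0.91 ± 0.23, not called by limma (adjusted p = 0.0737) and called by voom (0.0449). The part of such cells in the results was not tested.

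The genes of the proteins that both compounds bind were not called. EP300 had 13.1 and 14.1 scaled FPKM with both compounds and 8.98 and 11.1 with I-CBP112 (0.41 ± 0.19, adjusted p = 0.253, limma), and CREBBP 14.8 and 12.1 with both compounds and 9.88 and 10.7 with I-CBP112 (0.35 ± 0.29, adjusted p = 0.522, limma). Among 29 acetyltransferases and deacetylases, KAT2B, which encodes the acetyltransferase PCAF, was the only one called, with 7.58 and 7.56 scaled FPKM with both compounds and 4.05 and 3.34 with I-CBP112 (0.87 ± 0.16, adjusted p = 0.0333, limma; not called without the block). The median of that list was 0.05. Over all genes tested 1.43% were called higher, so a single call says little about such a list.

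Some calls rest on the block or on single libraries. Without the block the following named falls were not called: TK1, WDR43, DDIT3, ATF4, UGT2B11, NPM1, SRM, BOK, SCD, PHGDH, SIK1, LRRN1, CAMK2N1, FASN, CCND1, FKBP5, SESN2, INSIG1, PSPH, NOP2, GATA2, BID, HSPA5 and FN1. Nor were the rises of BAD, CTSB, IFI6, ERO1B, KAT2B, MT3 and ETNK2. Their adjusted p without the block lay between 0.0509 for SIK1 and 0.431 for BAD (limma). Of the 86 named genes that were called, 21 passed in each of the 8 fits that left out 1 library, among them KLK3, KLK2, TMPRSS2, MYC, DDC, SLC45A3, HES6, CHAC1 and PSAT1. HEXIM1 was not called without either library of both compounds or without replicate 2 of I-CBP112 (adjusted p up to 0.109, limma). Over the 8 fits the number of calls lay between 56, without replicate 2 of both compounds, and 1268, without replicate 2 of DMSO. Across all genes, 48 falls and 0 rises were called in all 8.

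The A-485 change with I-CBP112 present was set against the A-485 change from DMSO, which shares no library with it. From DMSO, 1096 genes fell (9.23%) and 532 rose (4.48%). Of the 514 genes that fell with I-CBP112 present, 337 were also called lower from DMSO (65.6% of one list, 30.7% of the other), and of the 170 that rose, 54 were called higher (31.8% and 10.2%). With I-CBP112 present the log2 change was more negative for 350 of the 514 and more positive for 150 of the 170. These counts include genes whose change from DMSO had the opposite sign. The genes were chosen by the first of the changes compared. Members of the lists differed in both directions: the median of ATF4 targets was -1.20 with I-CBP112 and -1.48 from DMSO, that of ribosomal proteins -0.17 and -0.56, and that of androgen-repressed genes -1.17 and 0.26. The test of the difference over all genes called 10 (0.0842%, limma), all with a more negative change in the presence of I-CBP112; on the values as deposited 11 were called, 6 more negative and 5 more positive.

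KLK3 is one of the 10. From DMSO it changed by -1.82 ± 0.13, with 569 and 629 scaled FPKM under A-485 and 2240 and 2005 under DMSO, and the difference between the changes was -2.57 ± 0.18 (adjusted p = 0.0207, limma). UGT2B17, UGT2B15 and BCHE fell with I-CBP112 present and had higher values with A-485 alone than with DMSO, called for BCHE and UGT2B15 but not for UGT2B17. BCHE had 7.14 and 6.73 scaled FPKM with both compounds and 16.6 and 18.1 with I-CBP112, but 25.4 and 26.4 with A-485 and 10.5 and 12.9 with DMSO, a difference of -2.30 ± 0.20 (adjusted p = 0.0207, limma). Also called were TFPI, an inhibitor of coagulation, DDC, MAOA, which degrades monoamines, the chemokine receptor ACKR3 and the kinase PLK2. None of the 10 passed without the replicate block, where 0 genes were called (limma, 1060 genes at an unadjusted p under 0.05) against 147 with voom on approximate fragments.

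**Figure D4:**
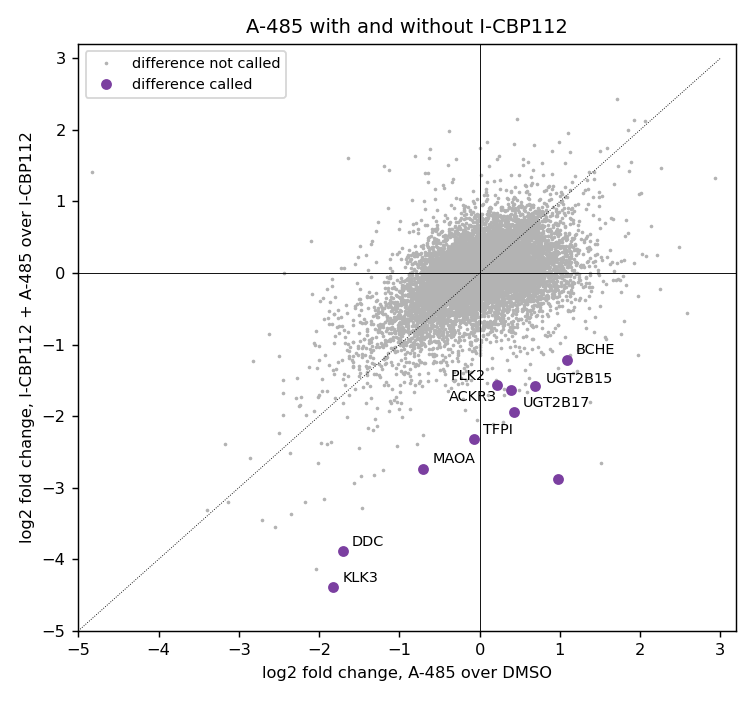
Log2 fold change of I-CBP112 with A-485 over I-CBP112 (vertical) against that of A-485 over DMSO (horizontal), 1 point per gene, with the 10 genes whose difference was called in purple. All 10 lie below the dotted line of equal change, and BCHE, UGT2B15, UGT2B17, ACKR3 and PLK2 are among those below 0 on the vertical and above 0 on the horizontal axis.

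Transcripts were tested singly as well. Of 31833 transcripts, 40 were called lower (0.126%) and 6 higher (0.0188%), in 41 genes, and 0 genes had called transcripts in opposite directions. KLK3 had 4 called transcripts, all lower, between -4.61 ± 0.17 for KLK3-201 and -3.22 ± 0.24 for KLK3-212, and MYC had 2, MYC-205 (-3.15 ± 0.18) and MYC-202 (-2.91 ± 0.17). In fits that left out 1 library, 0 transcripts were called, or 2 without replicate 1 of A-485 (limma; 1741 to 3657 had an unadjusted p under 0.05).

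All 6 transcripts that rose were close to 0 in both I-CBP112 libraries and not in the others, a pattern looked for after the values were seen. EEF1D-221, a short transcript of a translation elongation factor gene, had 138 and 169 scaled FPKM with both compounds and 0.118 and less with I-CBP112, but 134 and 132 with A-485 and 308 and 281 with DMSO. SSBP1-211, of a mitochondrial DNA-binding protein gene, had 78.3 and 95.6 scaled FPKM with both compounds, 0.111 and 0.0472 with I-CBP112, 46.7 and 108 with A-485 and 126 and 202 with DMSO. EEF1B2-207 had the mirror pattern, with 63.2 and 86.6 scaled FPKM with I-CBP112 and values near 0 in the other 6 libraries. The sums of these 7 genes over all transcripts were not called (adjusted p from 0.098 to 0.908, limma). Whether the authors' assignment of reads to transcripts in these 2 libraries took part in it was not tested.

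**Figure D5:**
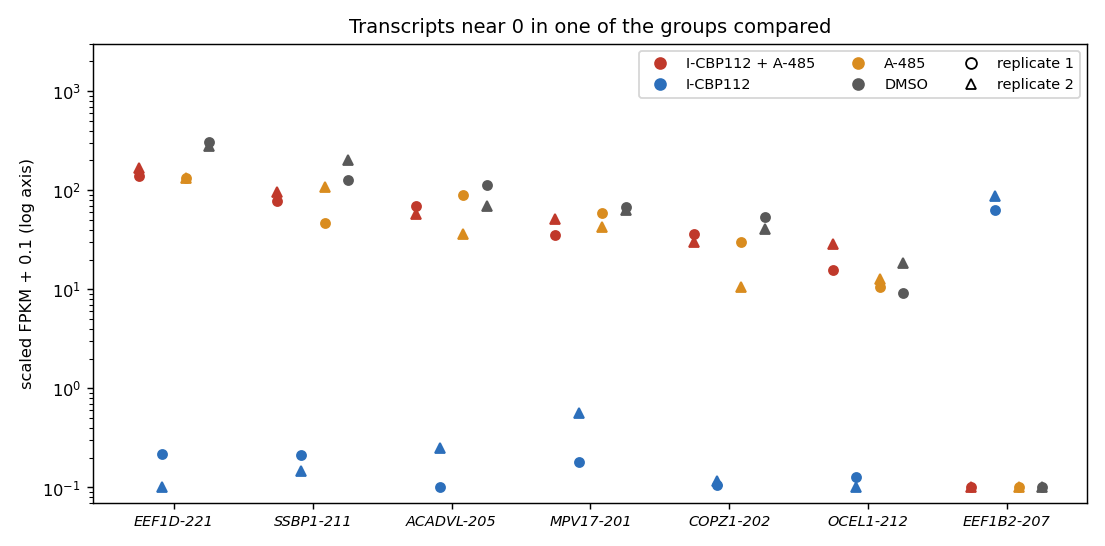
Scaled FPKM plus 0.1 (log axis) of 7 called transcripts in all 8 libraries, circles for replicate 1 and triangles for replicate 2. Both I-CBP112 libraries (blue) lie near the floor for the first 6 transcripts and are the only ones above it for EEF1B2-207.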

How the data were processed

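Total RNA of LNCaP-FGC cells was sequenced after 24 h of treatment in 8 libraries, 2 in each of 4 groups. The authors' deposited values form 1 table of 81591 transcripts. It is named as counts, but 78.3% of its values are not whole and the low values of long transcripts are steps that shrink with length, so the deposited values were treated as FPKM. STAR, Cufflinks, DESeq, DESeq2, hg19 and GRCh37 are named, per the submitters' processing notes; the sources used here give neither their roles nor their versions. Between 77.3% and 83.2% of low values were whole multiples of a library's step, within 0.1 of a fragment, and approximate fragments came from that step.

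Transcripts were matched to genes by Ensembl ID in GENCODE 29 (91.0% matched, 95.7% to 96.6% of the FPKM) and summed to 19431 genes. Libraries were scaled to 1e+06 and by a trimmed mean of log ratios (30% of ratios and 5% of levels trimmed). Genes at 1 or more in at least 2 libraries were tested on log2(scaled FPKM + 1) by limma 3.58.1 (R 4.3.3), which understates changes of low genes. The fit had 1 mean per group over all 8 libraries, a replicate block, a trended robust spread (3 residual degrees of freedom) and p-values adjusted after Benjamini-Hochberg, with a threshold of 0.05. The block follows the names 12-17 and 2-22 that the groups' columns share; what they mark is not stated. Between groups, the deviations of same-numbered libraries correlated at 0.145 to 0.425 across genes. The test was checked on simulated data that met its assumptions, with the same spread of a gene in all libraries. That check does not cover libraries of unequal depth.

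Named genes are a panel of 11, the 12 largest called falls and rises of coding genes at a mean of 5 or more in the higher group, up to 4 called members of each list, the 6 largest called differences each way and the 10 most abundant genes. Results for some genes that the rule or the lists hold are not reported here. Transcripts outside this rule were chosen after their values were seen. Comparison, members and gene lists were chosen with earlier results of these data known, so lists have counts and medians and no test. RefSeq promoters (GRCh38.p14) were matched by gene; no coordinates of the authors' build were used. Alternatives changed the block, scaling, pseudocount, filter, spread model, length and GC correction, libraries fitted and count model (voom on approximate fragments).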

Additional observations from a re-analysis of the deposited data

Results flagged for a closer look

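For 10 genes the log2 change on adding A-485 in the presence of I-CBP112 differed from the change on adding A-485 to DMSO, by the test of that difference over all genes (limma, adjusted p between 0.0207 and 0.0492). Among them, the first change minus the second was -2.57 for KLK3, -2.37 for UGT2B17, -2.30 for BCHE, -2.27 for UGT2B15, -2.26 for TFPI, -2.18 for DDC, -2.03 for MAOA, -2.03 for ACKR3 and -1.78 for PLK2. In all 10 both libraries with both compounds lay below both I-CBP112 libraries, as was the case for 25.1% of all genes tested. The test that picked the 10 used these libraries, so this is no separate evidence. TFPI had 7.45 and 8.45 scaled FPKM with both compounds and 37.1 and 51.6 with I-CBP112, against 31.9 and 40.1 with A-485 and 32.9 and 42.8 with DMSO. MAOA had 42.1 and 46.4 scaled FPKM with both compounds and 301 and 299 with I-CBP112, against 157 and 161 with A-485 and 269 and 249 with DMSO. Without the replicate block 0 genes were called (limma; 1060 at an unadjusted p under 0.05), and for KLK3, UGT2B17 and DDC the call was kept in 2 of the 8 fits that left out 1 library, those without a DMSO library.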

How the results depend on the processing

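The number of calls moved with several choices. Without the replicate block 269 genes were called between both compounds and I-CBP112 (236 lower, 33 higher), 534 between A-485 and DMSO, and 0 for the difference. Fitted on the 4 libraries compared, 1106 were called, 343 of them higher. On the values as deposited 445 were called (61 lower, 384 higher; 829 for A-485 against DMSO), of which 171 were among the 684, and with library totals only 328 were higher. With no filter on low values the counts were 277 (236 lower, 41 higher), 775 for A-485 against DMSO and 0 for the difference. Voom on approximate fragments called 1580 (1088 lower, 492 higher), 3739 and 147. The difference had 16 calls with a filter of 5, 0 with a constant spread and 4 after the length and GC correction. With 1 library left out, calls ranged from 56 to 1268 (lower 56 to 845, higher 0 to 423), for A-485 against DMSO from 8 to 2956, for the difference from 0 to 533 and for transcripts from 0 to 2. The cause was not tested.

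Of 110 named values, 86 were called in the main fit. All 110 kept their status, called or not, with median-of-ratios scaling, and 107 and 109 did with pseudocounts of 0.1 and 5. Of the 86 calls, 26 were lost without the block, 32 with no filter, 8 with library totals only and 6 with a constant spread. On the values as deposited 44 were lost, and 15 other named values changed sign. With 1 library left out, many of the 86 calls were lost as well. On the values as deposited these log2 changes turned positive: CDKN1A 0.17, RPS24 0.15, RPL4 0.24, CDC20 0.10, HSPA5 0.0908, MT-ATP8 0.47, MT-CO2 0.53, RPS2 0.44, MT-CO1 0.51, MT-CO3 0.67, MT-ATP6 0.63, EEF1A1 0.39, RPLP0 0.48, RPL38 0.49 and MT-ND4L 0.28; of these HSPA5 alone had been called. With library totals only MT-CO3 was at 0.0458 and MT-ATP6 at 0.0070. With 1 library left out, MT-ATP8 ranged from -0.65 to 0.14, MT-CO2 from -0.67 to 0.28, MT-CO1 from -0.50 to 0.0681, MT-CO3 from -0.53 to 0.42 and MT-ATP6 from -0.48 to 0.29, positive without replicate 1 of both compounds and, but for MT-CO1, without replicate 2 of I-CBP112.

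Each group has 2 libraries, and genes below 1 scaled FPKM were not tested. The I-CBP112 library of replicate 2 has the fewest fragments assigned to transcripts, about 4.44 times 1e+06. These are 21.5% of the fragments by which its FPKM were scaled. A lone library left in a group is assumed to vary like the other groups. Agreement between the pairs cannot tell separate cultures from repeated preparation.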

Other observations

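The most abundant genes in the I-CBP112 libraries were mitochondrial transcripts and translation genes, and 0 of these 10 were called by limma, by voom or at an unadjusted p under 0.05. Between both compounds and I-CBP112 their log2 changes lay between -0.44 ± 0.27 for MT-ND4L, a subunit of respiratory complex I, and -0.06 ± 0.34 for MT-CO3, of complex IV.

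C8orf59 and FAM198B joined BCHE and UGT2B15 as the 4 genes called in opposite directions by the 2 A-485 comparisons. SCO2, a copper chaperone of cytochrome oxidase, was called higher with both compounds (1.51 ± 0.31). It had 30.5 and 19.3 scaled FPKM with both compounds and 5.70 and 10.8 with I-CBP112, but 19.2 and 17.1 with DMSO. Its symbol is shared by a second gene ID and the value is uncertain.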
